A study of Mus musculus with 18 samples.

Results

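Small RNAs of unperturbed mouse NIH/3T3 cells were read directly (input) and after a pull-down (IP) with a monoclonal antibody to pseudouridine (Ψ), in 6 libraries of the 18 in the series. The members were taken by their labels as wild type (WT), 3 input and 3 IP libraries named A, B and C. These labels name no treatment other than the IP and do not say whether the cells carried a control for the knockdown. The other 12 libraries, input and IP from the same line 3 or 6 days after knockdown of Pus1, which encodes a Ψ synthase, are used only where stated. NIH/3T3 is an immortalised embryonic fibroblast line, grown here in medium with fetal bovine serum, and all libraries come from this 1 line. The labels do not say whether the replicates were separate cultures, so p-values measure the spread between these libraries, which may be technical. The question put to the data was which miRNAs, arms and families the antibody took up and which it left behind. No library of a control IP is in the series, so what part other steps of the IP had in the ratios was not tested.

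Ψ is an isomer of uridine in which the base is joined to the sugar through a carbon atom. It is made in place by pseudouridine synthases, some guided by H/ACA small nucleolar RNAs and others acting alone, and is long known from rRNA, tRNA and spliceosomal RNA. miRNAs are cut as a duplex from a hairpin, and 1 strand, from the 5′ (5p) or 3′ (3p) arm, is kept by Argonaute. Bases 2 to 8 of that strand, the seed, pair with target mRNAs, and miRNAs that share a seed form a family.

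Input libraries had 9973764 to 12530362 mapped reads and IP libraries 4525099 to 8185779. Reads outside miRNA rows made up 5.47% to 5.86% of mapped reads in input and 14.8% to 18.6% in IP, and these groups did not overlap (two-sided exact permutation test, p = 0.1, the smallest that 3 against 3 allows). Reads of 875 to 892 miRNAs were seen in each input and of 706 to 761 in each IP library. Across 196 abundant miRNAs, log2 levels correlated at 0.99 to 1.00 within input and within IP and at 0.76 to 0.79 between them (Pearson's r over miRNAs of the same libraries, a description). Levels are given as CPM, the counts of a miRNA over those of all miRNAs after median-ratio scaling, and ratios of IP to input on the log2 scale, where a ratio above 0 is relative to the other miRNAs of the library. The 7 fibroblast and mesenchymal markers were all present in input, together at 442076 to 467916 unscaled CPM, against 190269 to 212843 in IP. Of 18 markers of other cell types, 10 had at most 3 counts in every input library and 6 were at 0, among them miR-142a, of blood cells, and miR-133a-3p, of muscle. The exception was miR-9-5p, a neural miRNA, with 3576, 3236 and 3207 CPM in input and 5959, 7069 and 7075 CPM in IP. Unscaled, miR-9-5p had a mean of 3374 CPM in input and 6614 in IP. It made up nearly all of that list's 3226 to 3622 unscaled CPM in input and 6373 to 6959 in IP. Of that list 5 were tested and 5 were higher in IP. Of the fibroblast list 1 was higher and 6 were lower, and of all 505 miRNAs tested 34.5% were higher and 41.6% lower. Of the 5 tested markers of other cell types, miR-375-3p had 3, 3 and 9 counts in input and 16, 15 and 22 in IP. miR-200c-3p had 12, 9 and 8 against 5, 13 and 14. The filter on low counts kept both through their IP levels, so 5 of 5 was in part set by the filter. Among those not tested, miR-205-5p had 4, 10 and 10 counts in input and 0, 0 and 4 in IP. miR-451a had 4, 1 and 5 against 0, 0 and 1. Among the 5 was the liver miRNA miR-122-5p with 26.9, 36.7 and 26.04 CPM in input and 96.4, 110.2 and 101 CPM in IP; what part RNA of other cells or reads outside miRNAs had in the results was not tested.

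The mature sequences of the miRNAs with the lowest ratios among those with a mean of at least 100 CPM are shown first, since the letters can be set against the ratios. They are from RefSeq on GRCm38, 5′ to 3′, with the seed in capitals. miR-199b-5p, also among the 10 lowest, was not matched to a RefSeq sequence and is left out.

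miR-381-3p: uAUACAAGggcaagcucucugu
miR-101a-3p: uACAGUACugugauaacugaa
miR-455-5p: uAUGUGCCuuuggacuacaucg
miR-30e-5p: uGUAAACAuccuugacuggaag
miR-300-3p: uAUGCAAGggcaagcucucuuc
miR-210-3p: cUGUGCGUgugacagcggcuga
miR-30a-5p: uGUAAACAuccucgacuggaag
miR-101b-3p: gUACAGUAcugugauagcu
miR-199a-5p: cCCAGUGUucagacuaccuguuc

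The next set had the highest ratios by the same rule, with miR-485-5p and miR-328-3p as the other members.

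miR-92a-3p: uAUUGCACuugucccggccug
let-7d-3p: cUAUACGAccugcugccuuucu
miR-365-3p: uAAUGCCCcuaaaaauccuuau
let-7e-5p: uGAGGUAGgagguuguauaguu
miR-155-5p: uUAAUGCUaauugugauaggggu
miR-1198-5p: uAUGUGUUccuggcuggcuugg
miR-10a-5p: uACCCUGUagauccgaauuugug
miR-125a-5p: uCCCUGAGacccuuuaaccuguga

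The third set pairs miRNAs that share a seed and nearly all other letters, most of them with unlike ratios, and miR-92a-3p above is the partner of miR-25-3p.

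miR-19a-3p: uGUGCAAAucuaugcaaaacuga
miR-19b-3p: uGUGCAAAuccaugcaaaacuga
miR-100-5p: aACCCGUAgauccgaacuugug
miR-99a-5p: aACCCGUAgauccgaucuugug
miR-17-5p: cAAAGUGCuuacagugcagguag
miR-106b-5p: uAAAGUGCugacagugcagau
miR-20a-5p: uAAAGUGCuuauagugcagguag
miR-25-3p: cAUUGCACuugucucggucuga
miR-130a-3p: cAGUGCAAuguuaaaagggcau
miR-130b-3p: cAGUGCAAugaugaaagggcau
miR-27a-3p: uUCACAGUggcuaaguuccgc
miR-27b-3p: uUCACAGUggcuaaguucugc
let-7a-5p: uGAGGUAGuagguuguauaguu
let-7c-5p: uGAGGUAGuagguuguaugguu
miR-7a-5p: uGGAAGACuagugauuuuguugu
miR-7b-5p: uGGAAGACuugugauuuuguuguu

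Of 505 miRNAs tested, 384 (76.0%) differed between IP and input at an adjusted p under 0.05, the threshold used throughout. Higher in IP were 174 (34.5% of those tested) and lower were 210 (41.6%), and the median log2 ratio of all 505 was -0.16. The lower side was the longer one: 132 miRNAs fell by over 4-fold and 57 rose by over 4-fold. Among the 147 miRNAs with a mean of at least 100 CPM, 63 were higher and 67 lower, 9 had a log2 ratio under -4 and 0 had one above 3. Upper-quartile scaling moved the median of all miRNAs to 0.49 and the share of higher calls from 45.3% to 60.0%, and total mapped reads as library size moved the median to -0.37. Of the 384 calls, 372 had the same sign under each of 4 other scalings, and the other 12 had log2 ratios between -0.65 and -0.31.

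**Figure D1:**
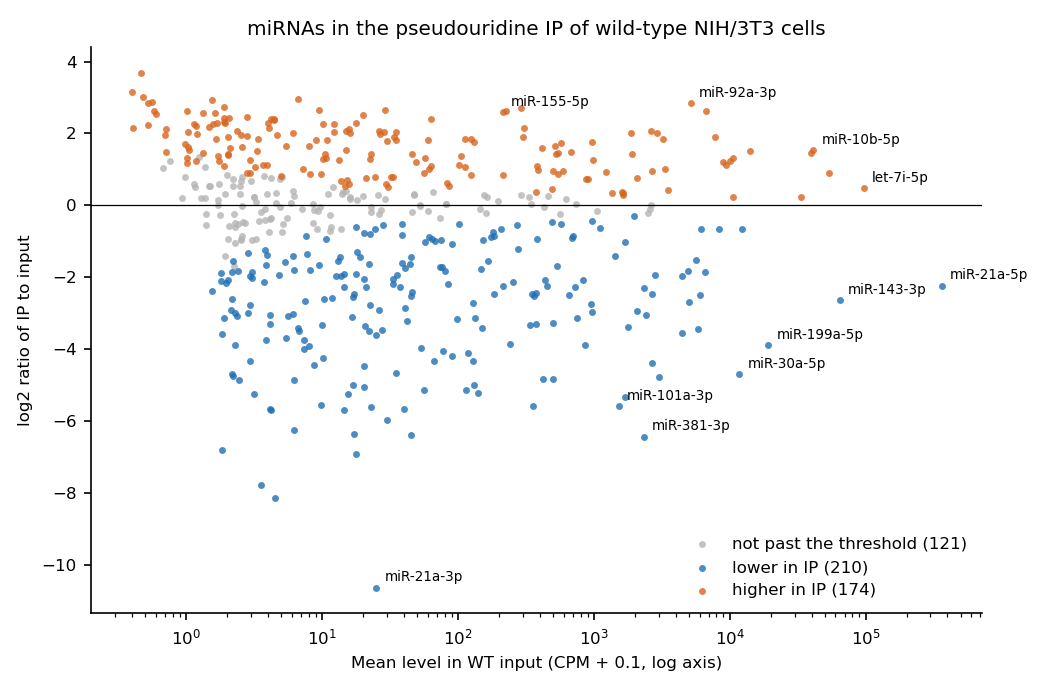
Each point is 1 of 505 miRNAs, with its mean level in the 3 WT input libraries (CPM + 0.1, log axis) against its log2 ratio of IP to input; colours give the call at an adjusted p under 0.05. The 210 lower miRNAs reach further from 0 than the 174 higher ones, and miR-21a-5p and miR-143-3p lie below 0 at the abundant end.

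Lowest among miRNAs with a mean of at least 100 CPM was miR-381-3p, encoded in the imprinted Dlk1-Dio3 domain on chromosome 12 at chr12:109726870-109726891 (plus strand), with 2311, 2135 and 2553 CPM in input and 27.1, 33.2 and 20.9 CPM in IP. Its log2 ratio was -6.44 ± 0.18 (SE, n = 3 per group; adjusted p = 3.43e-13), and the neighbouring miR-300-3p, at chr12:109724363-109724384 (plus strand), had 429.7, 415 and 436 CPM in input and 15.2, 16.99 and 12.9 CPM in IP and a ratio of -4.83. In both, every IP library lay far below every input library. miR-101a-3p, known to repress the histone methyltransferase gene Ezh2, is encoded at chr4:101346957-101346977 (minus strand) in an exon of a lincRNA. It had 1551, 1486 and 1531 CPM in input and 29.4, 33.4 and 31.7 CPM in IP, a log2 ratio of -5.59 ± 0.13 (SE, n = 3 per group; adjusted p = 8.34e-14). Its relative miR-101b-3p, from chr19:29135338-29135356 (plus strand) in an intron of Rcl1, went the same way, with 2785, 2650.0 and 2668 CPM in input and 118, 158 and 111 CPM in IP and a ratio of -4.38.

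miR-30e-5p, from an intron of Nfyc at chr4:120772660-120772681 (minus strand), had 1656, 1582 and 1879 CPM in input and 46.3, 44.1 and 37.5 CPM in IP, and miR-30a-5p, at chr1:23272274-23272295 (plus strand), had 12508, 11156 and 11624 CPM in input and 440.4, 466 and 451 CPM in IP. Both belong to a family known for repressing genes of the epithelial to mesenchymal transition, and their ratios were -5.33 and -4.70. miR-210-3p, the miRNA induced by hypoxia, had 484, 467 and 545 CPM in input and 17.97, 18.2 and 16.7 CPM in IP, a log2 ratio of -4.82 ± 0.16 (SE, n = 3 per group; adjusted p = 2.09e-12). miR-455-5p, from an intron of the collagen gene Col27a1 at chr4:63256867-63256888 (plus strand), had 358, 328 and 383 CPM in input and 4.05, 8.89 and 8.66 CPM in IP and a ratio of -5.59. The 5p strands of miR-199, made in part from the Dnm3os transcript, completed the 10 lowest. miR-199b-5p had 3472, 2967 and 2689 CPM in input and 113, 139 and 83.1 CPM in IP and miR-199a-5p 21365, 18175 and 17808 CPM in input and 1322, 1548 and 1000.0 CPM in IP, with ratios of -4.77 and -3.89.

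At the other end, miR-92a-3p, the last miRNA of the growth-promoting miR-17-92 cluster on chromosome 14, had 5183, 5319 and 5016 CPM in input and 34106, 36449 and 40261 CPM in IP. It is also encoded on the X chromosome, and the counts of both loci were summed. Its log2 ratio was 2.84 ± 0.10 (SE, n = 3 per group; adjusted p = 2.85e-12). let-7e-5p, of the family that represses growth genes such as Hmga2, had 6448, 7097 and 6697 CPM in input and 36692, 37402 and 49752 CPM in IP, a ratio of 2.61, and miR-125a-5p, a lin-4 relative cut from the same locus on chromosome 17, had 2697, 2801 and 3206 CPM in input and 12120.2, 10442 and 12754 CPM in IP, a ratio of 2.02. Both hairpins lie inside the Spaca6 gene beside that of miR-99b, and 6 of 6 tested arms of that locus were higher in IP, down to miR-99b-3p at 0.28. let-7d-3p, the 3p strand of the let-7d hairpin, had 288, 313 and 268 CPM in input and 1870.1, 1774 and 2018 CPM in IP and a ratio of 2.70, against 1.42 for the 5p strand. miR-155-5p, from the exon of Mir155hg at chr16:84714143-84714165 (plus strand) and known from immune activation, had 199, 218 and 226 CPM in input and 1253, 1173 and 1428 CPM in IP, a ratio of 2.58.

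miR-10a-5p, encoded in the Hoxb cluster at chr11:96317186-96317208 (plus strand), had 2543, 2663 and 2690.3 CPM in input and 10481, 10549 and 12243 CPM in IP, a ratio of 2.08. miR-365-3p had 234, 249.8 and 194 CPM in input and 1649.9, 1236 and 1309 CPM in IP and a ratio of 2.63, and miR-1198-5p, from an intron of Gripap1, had 66.4, 60.5 and 61.99 CPM in input and 309, 325 and 361 CPM in IP and a ratio of 2.40. The last members by this rule were miR-485-5p, with 25.03, 32.3 and 29.4 CPM in input and 160.5, 171 and 212 CPM in IP and a ratio of 2.65, and miR-328-3p, with 277, 308 and 341 CPM in input and 1409, 1329.8 and 1397 CPM in IP and a ratio of 2.16. All 10 had 3 IP libraries above 3 input libraries, as the rule required.

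**Figure D2:**
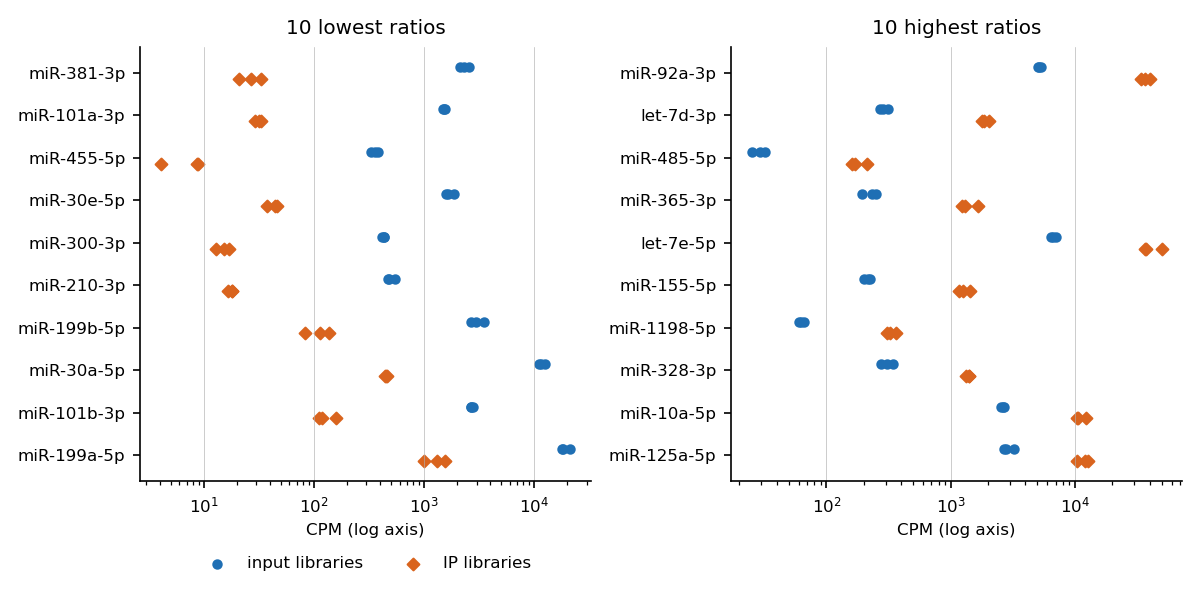
Levels (CPM, log axis) in each of the 3 input (circles) and 3 IP libraries (diamonds) of WT cells, for the 10 miRNAs with the lowest and the 10 with the highest ratio among those with a mean of at least 100 CPM. Replicates lie close together beside the distance between input and IP; miR-455-5p, with 4.05 to 8.89 CPM in IP, is the most spread on the low side.

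The 10 most abundant miRNAs held 74.5% ± 0.41 of miRNA reads in input and 63.2% ± 1.14 in IP (SD, n = 3), and 7 of them were also among the 10 most abundant in IP. miR-21a-5p, the miRNA of the Vmp1 locus that is abundant in fibroblasts, had 357940, 346671 and 385315 CPM in input and 72981, 89805 and 69212 CPM in IP, a log2 ratio of -2.23 ± 0.10 (SE, n = 3 per group; adjusted p = 5.82e-11). miR-143-3p, made together with miR-145a and known from smooth muscle and mesenchyme, had 65511, 61348 and 66013 CPM in input and 9621, 10796 and 10489 CPM in IP, a ratio of -2.64. Members of let-7 and miR-10 held larger shares in IP than in input. miR-10b-5p, encoded between Hoxd genes, had 40300.4, 40734 and 41882 CPM in input and 119859, 118122 and 120332 CPM in IP, a ratio of 1.54. let-7f-5p and let-7g-5p had ratios of 1.45 and 1.51, miR-99b-5p had 0.89 and let-7i-5p 0.48. miR-199a-3p had -0.67, with 12041, 12707 and 12162 CPM in input and 7019, 8364 and 7847 CPM in IP. miR-100-5p had 34247, 33101 and 32938 CPM in input and 40137, 34122 and 43330.4 CPM in IP, and its ratio of 0.23 ± 0.10 (SE, n = 3 per group; adjusted p = 0.042) did not pass the threshold under TMM scaling (log2 ratio 0.13, adjusted p = 0.283). At the middle of the range, miR-25-3p, miR-674-3p and miR-149-5p had ratios of 0.01, 0.02 and 0.04 and passed no threshold. miR-25-3p, for example, had 2689, 2704 and 2573 CPM in input and 2384, 2521 and 3129 CPM in IP, with the groups overlapping.

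A few miRNAs were nearly absent from IP. The star strand miR-21a-3p had 157.8, 310.8 and 353.5 counts in input and 0 in each IP library, at least 133-fold lower with 3 counts over the IP group as the floor. miR-362-3p had 164.8, 242.2 and 172.0 counts in input and 1.0, 0.5 and 1.0 in IP, and miR-380-5p 139.5, 174.0 and 156.7 against 3.0, 0.0 and 1.0. In all, 34 miRNAs had at least 10 counts in every input and at most 3 in every IP library, while 0 showed the opposite pattern. IP libraries were shallower, so 3 counts stand for 0.450 to 0.798 CPM there and for 0.254 to 0.318 CPM in input.

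Families were described by their counts and medians, beside the 76.0% called and the median of -0.16 of all miRNAs. All 9 let-7 guide strands rose, with ratios from 0.48 (let-7i-5p) to 2.61 (let-7e-5p) and a median of 1.51. The 3p strands of the same hairpins did not move as 1 group: of 11 tested, 4 were higher and 3 lower, from -5.98 (let-7i-3p) to 2.70 (let-7d-3p). let-7i-3p had 25.1, 30.8 and 33.7 CPM in input and 0.253, 1.19 and 0 CPM in IP. Both miR-10 strands, both miR-26 strands and the 3 miR-125/miR-351 strands were higher, with medians of 1.81, 1.39 and 0.35, the last spanning 0.24 (miR-125b-5p) to 2.02 (miR-125a-5p).

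Families lower in full were miR-101 (3 of 3, median -4.85), miR-148/miR-152 (3 of 3, median -3.40), miR-27 (2 of 2, median -2.45), miR-103/miR-107 (2 of 2, median -2.11) and miR-29, repressors of collagen genes (3 of 3, median -1.97). The 4 miR-181 strands were also lower, from -5.66 (miR-181c-5p) to -0.55 (miR-181d-5p), as were both miR-23 strands (median -0.87) and the 3 miR-34 strands, induced by p53 (median -0.65). The signs of miR-181d-5p, miR-34a-5p and miR-34c-5p turned under upper-quartile scaling. Of the 4 miR-199 strands, all lower, the 5p strands had ratios of -4.77 and -3.89 and the 3p strands of -0.67 and -0.67.

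In other families members with 1 seed went opposite ways. Among the 5 miR-30 5p strands, miR-30d-5p had 10506, 9861 and 9684 CPM in input and 24014, 26150.3 and 20974 CPM in IP, a ratio of 1.24 ± 0.10 (SE, n = 3 per group; adjusted p = 2.63e-08), while the other four were lower, down to miR-30e-5p. In the miR-15/miR-16 family, which restrains the cell cycle, miR-16-5p had 325, 396 and 438 CPM in input and 687, 765 and 824 CPM in IP, a ratio of 0.97, and miR-497a-5p -4.44. In the miR-17 family miR-20a-5p was higher and 4 of 6 members lower. miR-25/miR-92 spanned -0.98 (miR-32-5p) to 2.84 (miR-92a-3p), and miR-99/miR-100 -2.69 (miR-99a-5p) to 0.89 (miR-99b-5p). miR-130/miR-301 had 2 of 3 members lower (median -1.65), the 6 miR-30 3p strands had 3 higher and 0 lower (median 0.27), and miR-221/miR-222 had miR-222-3p higher at 0.95 and miR-221-3p not past the threshold at -0.21. miR-320-3p and miR-484, whose hairpins are made without Drosha, had ratios of 1.42 and -0.46, the second turning sign under upper-quartile scaling. Both miR-196 strands were rare, with ratios of 0.69 and 0.60. Of 13 groups of 3 or more tested miRNAs with the same RefSeq seed, 6 had all members called in 1 direction and 4 had members called in both. The 6 include miR-30a-5p, miR-30c-5p and miR-30e-5p, as miR-30b-5p and miR-30d-5p were not matched to a RefSeq sequence.

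**Figure D3:**
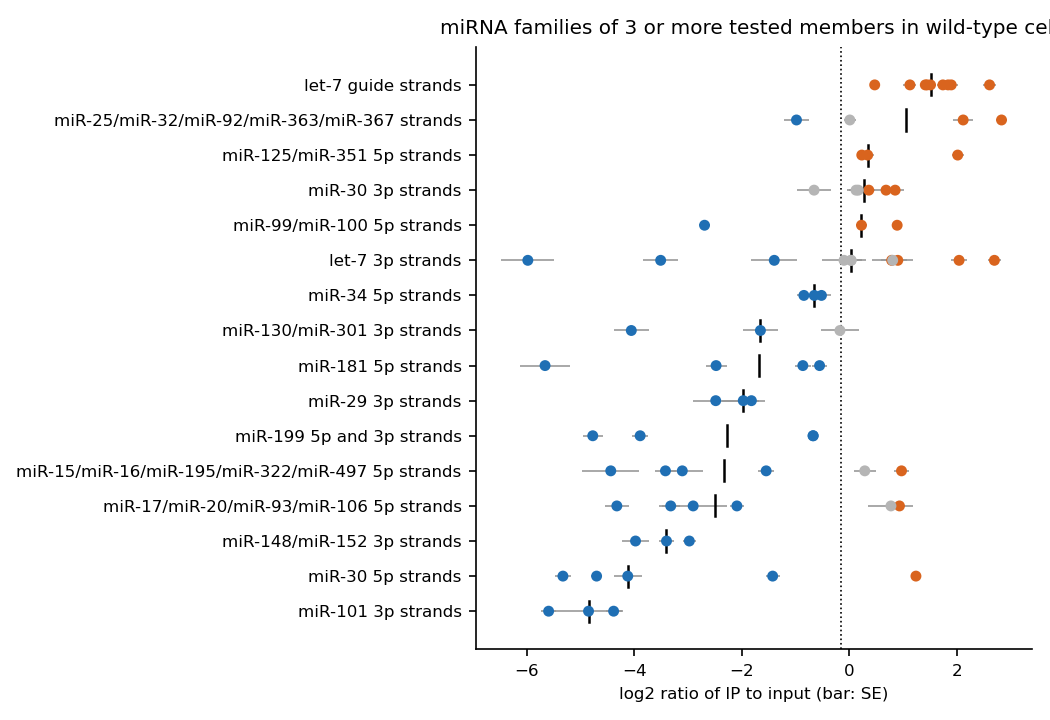
Each point is a tested member of 1 of 16 miRNA families (rows) at its log2 ratio of IP to input in WT cells, with its SE; orange is higher and blue lower at an adjusted p under 0.05, grey passed no threshold, short black lines are family medians and the dotted line is the median of all miRNAs. The let-7 guide strands lie right of 0 as a whole, the miR-101 and miR-148/miR-152 strands left of it, and the miR-30 5p and miR-17 families lie on both sides.

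Pairs of miRNAs with a shared seed and at most 3 other mismatches were then compared within each library, which removes the scaling between libraries. This test was chosen after the ratios had been seen. Of 77 such pairs, 44 (57.1%) differed in their IP ratio, among them 9 of the 17 pairs that differ at 1 position, and 35 of the 77 lie within the let-7 guide and 3p strands, sharing members. Positions are counted from 1 at the 5′ end, with the letter of the first miRNA before it and that of the second after it.

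The largest difference at 1 position was in miR-19. miR-19a-3p and miR-19b-3p differ only by U11C, and miR-19a-3p had 17.3, 19.7 and 23.7 CPM in input and 16.2, 8.69 and 10.9 CPM in IP while miR-19b-3p had 108, 117 and 119 CPM in input and 4.05, 3.36 and 2.52 CPM in IP. miR-19a-3p kept much of its level and miR-19b-3p lost nearly all of it, a difference of 4.34 ± 0.22 (SE; adjusted p = 2.86e-05) on the log2 scale, 20.3-fold. miR-100-5p and miR-99a-5p, which both target mTOR, differ only by A16U. miR-99a-5p had 4851, 5088 and 5231 CPM in input and 804, 789 and 755 CPM in IP, whereas miR-100-5p had a ratio of 0.23, and the difference was 2.91 ± 0.12 (SE; adjusted p = 1.52e-05). These 2 sites lie outside the seed, and each difference kept its sign and call when any library was left out, at 4.20 to 4.56 and 2.81 to 3.02.

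miR-17-5p and miR-20a-5p, E2f repressors cut from 1 transcript, differ by C1U and C12U. miR-17-5p had 347, 346 and 333 CPM in input and 31.1, 29.6 and 41.4 CPM in IP, and miR-20a-5p had 1249, 1250.0 and 1212 CPM in input and 2287, 2679 and 2138 CPM in IP, a difference of -4.26 ± 0.21 (SE; adjusted p = 2.86e-05). miR-106b-5p, which differs from miR-20a-5p by G10U, C12U and A20G, had 108, 131 and 146 CPM in input and 5.57, 8.30 and 5.35 CPM in IP and a difference from miR-20a-5p of -5.26 ± 0.18 (SE; adjusted p = 9.54e-06). The rare miR-106a-5p and miR-20b-5p differ by A10C and C12U and had ratios of -2.90 and 0.78 (the second not past the threshold), a difference of -3.64 ± 0.35 (SE; adjusted p = 0.000417). Of the 6 members, the 3 that hold the letters ACA around the shared C12U site had the lowest ratios, and miR-20a-5p and miR-20b-5p, with AUA there, the highest.

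miR-25-3p and miR-92a-3p differ by C1U, U14C and U18C and by -2.83 ± 0.06 (SE; adjusted p = 1.09e-06) in their ratio. miR-130a-3p and miR-130b-3p differ by U11A and A13G and by -2.34 ± 0.37 (SE; adjusted p = 0.0026), and miR-27a-3p and miR-27b-3p, regulators of fat cell formation, by C19U and -0.99 ± 0.12 (SE; adjusted p = 0.000826). Of the 35 let-7 pairs 23 were called, up to 2.04 in size (let-7a-1-3p below let-7b-3p). At 1 position, let-7a-5p exceeded let-7c-5p (A19G) by 0.77 ± 0.05 (SE; adjusted p = 0.000107), stood above let-7f-5p (G12A) by 0.43 ± 0.08 (SE; adjusted p = 0.0057), and lay below let-7e-5p (U9G), at -0.72 ± 0.07 (SE; adjusted p = 0.000542). Of the 17 pairs at 1 position, 8 did not pass the threshold, among them these: miR-7a-5p and miR-7b-5p (A10U) differed by 0.02 ± 0.08 (SE; adjusted p = 0.896), with 21.97, 21.8 and 24.2 CPM in input and 47.1, 67.4 and 52.8 CPM in IP for the less abundant miR-7b-5p, and miR-103-3p and miR-107-3p (G22C) by 0.30 ± 0.13 (SE; adjusted p = 0.088). The 2 pairs with identical letters over their shared length, such as miR-199a-3p and miR-199b-3p, differed by 0.00 and 0.0025; their reads cannot be told apart and were divided by the authors' counting, so this is a check of the counting and not of the RNA. Reads too short to hold the differing letter could be divided between other pairs in the same way.

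**Figure D4:**
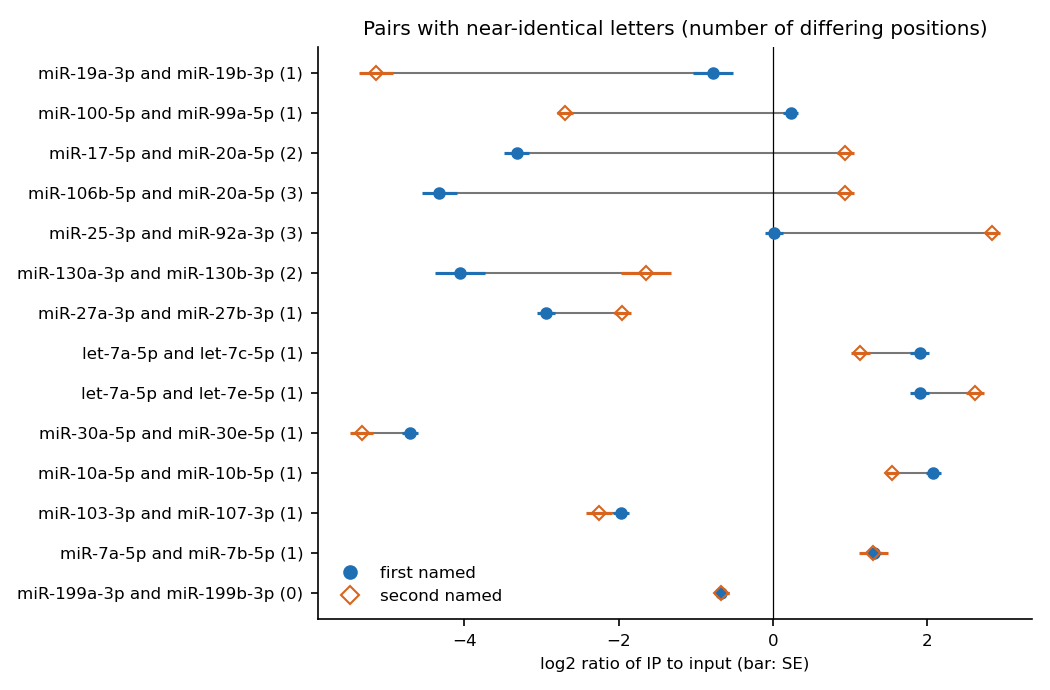
The log2 ratio of IP to input of both members of 14 pairs of miRNAs with 1 seed and at most 3 other differing positions (number in brackets), with SE; circles are the first and diamonds the second named. The members of the top pair, which differ at 1 position, lie at -0.78 and -5.14, and those of miR-7 and miR-199 coincide.

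The 2 knockdown time points, whose libraries are separate from those of WT, hold the same pairs, shown here from 1 model over 18 libraries. The log2 ratio of miR-19a-3p was -0.65 in WT, -1.29 at 3 days and -0.29 at 6 days of knockdown, and that of miR-19b-3p was -5.01 in WT, -4.80 at 3 days and -4.65 at 6 days. For miR-100-5p it was 0.35 in WT, 0.52 at 3 days and 0.12 at 6 days, and for miR-99a-5p -2.57 in WT, -2.60 at 3 days and -2.998 at 6 days. miR-20a-5p had 1.05 in WT, 1.10 at 3 days and 0.76 at 6 days, against -3.21 in WT, -2.96 at 3 days and -4.51 at 6 days for miR-17-5p. In both knockdown conditions the members of each of these pairs, chosen for their WT values, stood in the same order as in WT. A change of the IP ratio between knockdown and WT passed the threshold for 0 of 550 miRNAs at either time (edgeR; 16 and 119 at an unadjusted p under 0.05), with a depth of 241109 mapped reads in 1 of the 6-day inputs, and for 14 at 6 days without that library.

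The arms cut from 1 hairpin were compared within each library in the same way. Of 154 hairpins with both arms counted, 93 (60.4%) changed their 5p to 3p ratio in IP, 49 toward 5p and 44 toward 3p. Of 120 hairpins with both arms tested singly, 53 had both arms called in 1 direction and 26 in opposite directions. In input the major arm had a median ratio of -0.48 and the minor arm of -0.35. With at least 10 counts of each arm in every library, 58 of 75 hairpins were called.

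Among called hairpins with both arms at a mean of 20 CPM or more, the largest shifts toward 3p were in miR-30e and miR-30a. The 5p arm of miR-30e made up 88.7%, 88.9% and 91.01% of the reads of both arms in input and 19.7%, 15.4% and 14.7% in IP, a change of -5.45 ± 0.23 on the log2 scale (SE, n = 3 per group; adjusted p = 1.3e-10), and that of miR-30a made up 96.9%, 96.8% and 96.99% of the reads of both arms in input and 49.5%, 46.1% and 49.7% in IP. The 5p arms moved further from 0 than the 3p arms, since miR-30e-3p and miR-30a-3p had ratios of 0.13 and 0.37. In miR-455 the 5p arm held 90.5%, 89.1% and 90.96% of the reads of both arms in input and 17.2%, 28.04% and 26.5% in IP. miR-409, miR-199b and miR-1843b also turned toward 3p, by -4.60, -4.12 and -3.95, and in miR-409 the arms were called in opposite directions, at -3.15 for 5p and 1.46 for 3p.

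Toward 5p, by the same minimum, miR-382, a neighbour of miR-381 on chromosome 12 whose hairpin lies in an intron of the lincRNA Mirg, changed most. Its 5p arm held 38.1%, 36.3% and 34.5% of the reads of both arms in input and 87.4%, 88.7% and 90.7% in IP, a change of 3.83 ± 0.25 on the log2 scale (SE, n = 3 per group; adjusted p = 1.2e-08). miR-382-5p had 113, 107 and 98.7 CPM in input and 235, 252 and 339 CPM in IP, and miR-382-3p 183, 187 and 187 CPM in input and 33.9, 32.00 and 34.96 CPM in IP, so that the arms moved apart in both directions. In miR-140, a cartilage miRNA, the 5p arm held 4.83%, 6.002% and 6.89% of the reads of both arms in input and 23.1%, 25.9% and 22.5% in IP. miR-22, miR-10b, let-7e and miR-342 followed, with changes of 1.97, 1.75, 1.71 and 1.41. The arm with more reads was not the same in input and IP for 15 of the 93 called hairpins, among them miR-30e, miR-455, miR-382 and miR-199a, whose 5p arm went from 60.7% to 14.3% of reads. The 3p arms of miR-199a and miR-199b have the same letters, so the shares of both hairpins depend on how the authors divided those reads.

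**Figure D5:**
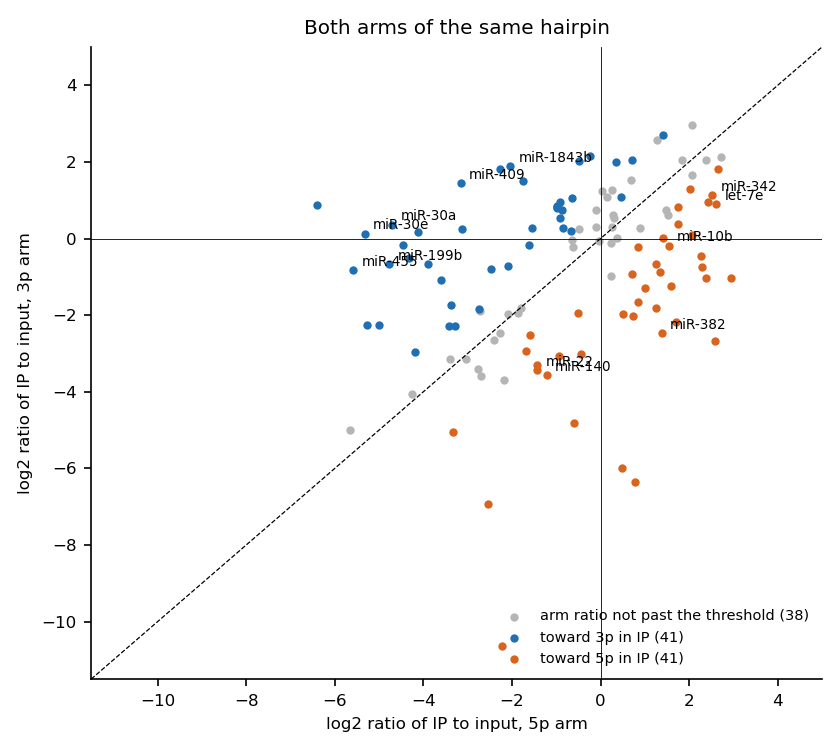
For 120 hairpins with both arms tested, the log2 ratio of IP to input of the 3p arm against that of the 5p arm in WT cells; blue hairpins turned toward 3p (41) and orange toward 5p (41) at an adjusted p under 0.05, and the dashed line marks equal ratios. miR-30e and miR-30a lie left with their 3p arms near 0, and miR-382 lies at the lower right, where the arms moved in opposite directions.

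Genomic clusters, cut from 1 primary transcript, were split as well. Of 11 groups of hairpins on 1 strand with gaps of at most 10000 bases and at least 4 tested miRNAs of a single locus, 9 had members called in both directions and 1, miR-99b with let-7e and miR-125a, had all in 1 direction. The counts below are of lists drawn by name, which can be wider than these groups. They stand beside the 34.5% higher and 41.6% lower of all miRNAs tested. In miR-17-92, 6 of 9 arms were lower and 3 higher, with a median of -3.32, from miR-18a-5p (-6.40) to miR-92a-3p. In this list miR-92a-3p and miR-19b-3p are also encoded on the X chromosome, and the counts of both loci were summed. Among its arms of a single locus, 5 of 7 were lower and 2 higher, up to miR-20a-5p at 0.94. miR-18a-5p had 40.7, 42.4 and 53.6 CPM in input and 0.506, 0.790 and 0.315 CPM in IP. Its 3p partner miR-18a-3p was higher, with 8.34, 9.54 and 11.4 CPM in input and 23.3, 16.6 and 14.2 CPM in IP. Of 50 tested arms of the miR-379/miR-410 cluster, 14 were higher and 24 lower (median -0.65), from miR-1197-3p, with 0 counts in each IP library, to miR-485-5p. The miR-322/miR-503/miR-351 cluster on the X chromosome had 5 lower and 3 higher of 12, from -3.42 (miR-322-5p) to 2.004 (miR-351-3p). The rodent Sfmbt2 cluster, whose members have near-identical copies and uncertain counts, had 5 higher and 5 lower of 21, miR-143/miR-145 had 3 of 4 lower, and miR-183/miR-96/miR-182, sensory organ miRNAs, had 1 higher and 2 lower of 4. The signs of miR-145a-5p and, in the miR-379/miR-410 cluster, of miR-323-3p turned under upper-quartile scaling.

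Letters of the mature sequence were available for 433 of the 505 miRNAs, and their relation to the ratio is given as a description across miRNAs, which share libraries and family members. By first base, the median log2 ratio was 0.42 for U (180 miRNAs), 0.13 for G (46), -0.40 for C (97) and -0.80 for A (110). With a mean of at least 100 CPM it was 0.43 for U (67), 0.24 for G (7), 0.13 for C (19) and -0.76 for A (36), so that of C turned sign. The ratio had a Spearman's rho of 0.12 with the number of uridines and 0.16 with GC content over 433 miRNAs, and of 0.32 and -0.04 over the 129 with a mean of at least 100 CPM, so neither value was steady with abundance. Length had a rho of 0.02. Adenine count (rho -0.26) and the folding energy of the mature strand (rho 0.33, and 0.37 at 100 CPM or more) were looked at after the ratios were seen. Of the 433 miRNAs 35.1% were higher and 42.5% lower, and of the 129 these were 43.4% and 45.0%. The 132 strands predicted not to fold on themselves at 37 °C had a median of 0.75, with 71 higher and 29 lower, and the 43 with an energy below -4 kcal/mol a median of -0.88, with 9 higher and 26 lower. In 9 called pairs the predicted energies differ, and in 7 of these the less folded member had the higher ratio. Some of the 7 share members, as let-7i-5p is set against both let-7b-5p and let-7g-5p. The energies can also lie close, at 0 for let-7e-5p and -0.5 kcal/mol for let-7g-5p. Both members of the miR-19, miR-100/miR-99a and miR-17/miR-20a pairs had the same predicted energy, -2.8, 0 and -2.4 kcal/mol.

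The letters ACA, also picked after the ratios were seen, are in 141 of the 433 sequences (32.6%) and in 27.2% of all 1623 mature sequences matched. With them 87 miRNAs were lower and 24 higher (median -1.34), and without them the median was 0.29 over 292. Among miRNAs of at least 100 CPM, 35 of 48 with ACA were lower and 8 higher. The shorter CA, which lies inside ACA, is in 325 sequences (75.1%, against 79.5% of all). Of these 87 were higher (26.8%) and 162 lower (49.8%), with a median of -0.67, against 0.98 for the 108 without CA. At 100 CPM or more these medians were -0.67 and 1.13, so the contrast was not particular to ACA. GGGG is in 31 sequences (7.16%, against 11.2% of all), of which 18 were higher and 8 lower (median 1.81). UNUAA or UNUAG, letters around which the synthase Pus7 is known to act, is in 47 sequences (10.9%, against 10.5% of all). Of these 21 were higher (44.7%) and 19 lower (40.4%), with a median of 0.10, beside 35.1% and 42.5% of all 433. At 100 CPM or more, 12 of 19 were higher (63.2%) and 6 lower (31.6%), median 0.86, beside 43.4% and 45.0% of 129. Among the higher ones is miR-20a-5p, which holds UAUAG. UGUA is in 38 sequences (8.78%, against 7.70% of all), of which 19 were higher and 15 lower (median 0.46). At 100 CPM or more, 12 of 18 with UGUA were higher and 6 lower (median 1.07), much as for the Pus7 letters. GUUCNANNC, the letters of the tRNA loop where Trub1 is known to act, is in 1 sequence. Only the mature strand as given was searched, and motifs may overlap.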

How the data were processed

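Small RNAs of NIH/3T3 cells were isolated by column and then cut from a gel per the study's methods, taken through the Ψ-IP or kept as input, and sequenced after NEBNext small RNA library preparation. The authors removed adapters and mapped reads with SeqImp (version not given in the sources used here) with the mm10 assembly, Ensembl and miRBase. The deposited values are estimated counts of reads per mature miRNA and precursor locus, not normalized, with replicates apart and reads of several loci divided among them, and 47.0% of non-zero values were not whole. Columns of distinct sequences were used only for totals. DESeq2 was the test the authors used.

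The row of total mapped reads was kept out of all library sizes and tests. The 2045 rows were summed to 1907 mature miRNAs (78 had several rows) and rounded. WT IP was tested against WT input on the 6 WT libraries with edgeR 4.0.16 in R 4.3.3 (median-ratio RLE factors, the study's scaling, filterByExpr, glmQLFit and glmQLFTest, no block), with Benjamini-Hochberg adjustment over all miRNAs tested and a threshold of 0.05. Standard errors were derived from each log2 ratio and its F statistic. Arms and near-identical pairs were tested with the library as a factor and the interaction of arm (or member) with IP. The knockdown comparison used 6 group means over 18 libraries. As the floor for a group with 0 counts in each library, 3 counts over the group were used, which covers counting error only. The steps were tested on simulated counts.

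Mature sequences and loci came from RefSeq on GRCm38, which mm10 also names (1623 miRNAs matched), host genes from GENCODE M21, and folding energies from ViennaRNA 2.7.2. Named were the 10 lowest and 10 highest ratios among called miRNAs with a mean of at least 100 CPM and no overlap of the groups, the 10 most abundant in input, the 3 smallest ratios at 100 CPM or more in input, the 6 hairpins with the largest change of the arm ratio each way with both arms at 20 CPM or more, the extremes of each list, miRNAs with at least 100 counts in every input and at most 3 in every IP library, and cell type markers. The members and lists were chosen with earlier results of these data known. The pair test, folding energy, adenine count and the letters ACA and GGGG were added after the values were seen.

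Alternatives were no scaling factors, TMM, upper-quartile factors, total mapped reads as library size, no filter, a mean of at least 10 counts, the largest row per miRNA, all 18 libraries, a replicate block, a threshold of 0.01, a test beyond 2-fold, DESeq2 1.42.0, limma 3.58.1 on arm ratios (0.5 added to counts), a minimum per arm, and each library left out.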

Additional observations from a re-analysis of the deposited data

How the results depend on the processing

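The count of 384 miRNAs called between WT IP and WT input was 371 with total mapped reads as library size, 376 with TMM, 379 without factors, 395 with upper-quartile factors, 423 without a filter, 388 by DESeq2, 333 at an adjusted p under 0.01 and 265 beyond 2-fold, and 353 to 404 with a library left out. Of the 388 DESeq2 calls 354 were shared, and each of these had the same sign. Whether a replicate letter ties a WT IP library to its input is not given by the labels. Same-letter deviations correlated at -0.02, -0.19 and -0.12 over 196 miRNAs, and different-letter ones at -0.09 to 0.20. Deviations from the mean of so few libraries depend on each other, so these values cannot decide it. With the replicate block 373 miRNAs and 92 hairpins were called, and 0 in either knockdown comparison. With at least 10 counts per arm 58 of 75 hairpins were called instead of 93 of 154, since fewer were tested. Leaving out a library gave 90 to 105 hairpins, and 10.3 to 12.2 percentage points between IP and input in the share of reads outside miRNA rows. The number of miRNAs with a changed IP ratio 6 days after knockdown went from 0 to 14 without replicate A of that input, and Spearman's rho at 100 CPM or more was -0.043 for GC content and 0.32 for uridines; the cause was not tested. Lists with a median above that of all miRNAs numbered 5 to 7 of 22 in all settings.

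The 3 miRNAs nearest a ratio of 0 changed sign, with no threshold passed. miR-25-3p was at -0.0877 with TMM, -0.0222 without factors, -0.206 with total mapped reads, -0.0495 without a filter, -0.0495 by DESeq2, and -0.131 to 0.0895 with a library left out. miR-674-3p was at -0.0877, -0.0106, -0.194, -0.0366 and -0.0365 under the same settings, and at -0.143 to 0.107 with a library left out. miR-149-5p was at -0.0592 with TMM, -0.169 with total mapped reads, -0.0181 without a filter, -0.0182 by DESeq2, and at -0.0490 to 0.106 with a library left out. All 3 were called higher with upper-quartile factors, at 0.67, 0.68 and 0.70. miR-100-5p lost its call in 14 settings.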
